A study of Mus musculus with 8 samples.

Results

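The nuclear genes of oxidative phosphorylation (OXPHOS) were examined in primary mouse hepatocytes. They were taken by symbol in GRCm38: every protein-coding nuclear gene starting with Nduf, Uqcr, Atp5, Cox4i, Cox5, Cox6, Cox7 or Cox8, together with Sdha, Sdhb, Sdhc, Sdhd, Cyc1 and Cycs, pseudogenes left out. The rule gave 96 of the 55450 gene identifiers counted, and 88 of these were among the 15468 genes with enough reads to test. The 8 that were not tested were Cox4i2, Cox6a2, Cox6b2, Cox7a1, Cox7b2, Cox8b, Cox8c and a second identifier for Atp5o at 0 reads in every library. A gene was tested at a sum of at least 80 counts over the 8 libraries, and the 88 are called members below.

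Oxidative phosphorylation is carried out in the inner mitochondrial membrane. Complex I takes electrons from NADH and complex II takes them from succinate, both pass them through coenzyme Q to complex III, cytochrome c carries them on to complex IV, and complex IV reduces oxygen. The proton gradient that complexes I, III and IV build drives the ATP synthase, complex V. A few subunits are encoded in mitochondrial DNA, and the nuclear genes supply all the others. Hepatocytes are rich in mitochondria and spend this ATP on gluconeogenesis, urea synthesis and protein secretion.

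The hepatocytes came from C57BL/6 mice of 8 weeks. WT cells (2 libraries) are labelled with the floxed gene alone, Slc39a8(F/F), and LSKO cells (2 libraries) were Alb-cre(+/+);Slc39a8(F/F), in which Cre under the albumin promoter removes the metal importer Slc39a8 (ZIP8) from hepatocytes but not from other liver cells. LSKO cells were also given 2 µM MnCl2, FeCl2, sodium selenite or ZnCl2, with 1 library each (Mn, Fe, Se and Zn libraries), and the incubation is given as 24 h in the protocol and as overnight in the design text. All groups shared the floxed alleles, and every treated group was LSKO, so that no metal was tested in WT cells. The sources do not say whether the paired libraries came from separate mice, so p-values measure the spread between these libraries, which may be technical.

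Slc39a8 was read 367 and 356 times in WT, 185 times in LSKO 1, 51 times in LSKO 2 and 30 to 75 times in the 4 metal libraries. The transcript was thus reduced but still present, and the untreated LSKO libraries differed in how much of it remained. Reads in genes ranged from 19943899 to 27731054 per library. The 8 hepatocyte markers were all detected, and their summed level ran from 19170 to 20192 normalised CPM (counts scaled to library size with TMM factors) in WT, from 28009 to 35619 in untreated LSKO, and from 29973 with iron to 48413 with selenite. Summed Kupffer cell markers were between 306 and 677 and endothelial markers between 76.5 and 183, so RNA of other liver cells was present. In whole cultures, fewer cells of a type and less RNA per cell cannot be told apart. The libraries also fell into 2 sets by their counts, called processing sets below. No source used here names these sets, and how they arose was not tested. HTSeq's tally of alignments of too low quality was 0 for LSKO 1 and LSKO 2 and 62 for the Mn library, but 592678 to 680199 for each of the other 5. Across 863 processed pseudogenes, Spearman's rho between libraries was 0.434 to 0.564 between the sets and 0.846 to 0.957 within them, while over the 88 members it was 0.945 to 0.991 between the sets. The untreated LSKO control thus belonged to another set than WT and 3 of the 4 metal libraries, and the counts with selenite, iron and zinc are given below with comparisons inside one set as well. The manganese library stood apart a second time, with 4.48% of its reads in no gene against 42.3% to 45.6% elsewhere.

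Promoter sequences were examined because many members share regulatory elements. The 96 genes of the rule have 95 symbols, untested genes included, and 75 of these matched a promoter of RefSeq. It ran from 250 bases before to 50 after the transcription start (GRCm38.p6), and 4 motifs were searched on both strands. The motif of nuclear respiratory factor 1 (NRF1), GCGCANGCG, occurred in 23 of them (30.7%) and in 10.0% of 16522 protein-coding promoters. The ETS motif bound by NRF2/GABP, CCGGAAG, occurred in 18 (24.0% against 13.4%), the YY1 motif AAGATGGCG in 8 (10.7% against 2.25%) and the cyclic AMP response element (CRE) TGACGTCA in 5 (6.67% against 2.64%). A match describes the letters and not a bound site. Among promoters of complex V genes, NRF1 motifs were in 7 of 13, and among those of complex IV in 1 of 14.

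Shown here are the bases before the start of Cycs, Ndufb4 and Atp5l, which rose with both selenite and zinc, and of Sdhd, the complex II gene that rose with selenite. They were chosen after their values were seen. Capitals mark a motif: GCGCANGCG or its complement for NRF1 in all 4, TGACGTCA in Cycs, and CTTCCGG, the complement of the ETS motif, in Atp5l and Sdhd. All lie on the minus strand and are written 5′ to 3′, Cycs at chr6:50566570-50566819, Ndufb4 at chr16:37654454-37654618, Atp5l at chr9:44920743-44920992 and Sdhd at chr9:50603850-50604099.
Cycs: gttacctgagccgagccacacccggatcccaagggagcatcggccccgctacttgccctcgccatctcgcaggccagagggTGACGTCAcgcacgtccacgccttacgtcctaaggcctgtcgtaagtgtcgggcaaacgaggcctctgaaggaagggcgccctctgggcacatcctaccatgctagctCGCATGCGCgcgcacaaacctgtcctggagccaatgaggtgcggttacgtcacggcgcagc
Ndufb4: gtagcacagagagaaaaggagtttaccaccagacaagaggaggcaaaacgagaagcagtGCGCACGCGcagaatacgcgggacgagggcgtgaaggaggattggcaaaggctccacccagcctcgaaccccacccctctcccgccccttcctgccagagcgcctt
Atp5l: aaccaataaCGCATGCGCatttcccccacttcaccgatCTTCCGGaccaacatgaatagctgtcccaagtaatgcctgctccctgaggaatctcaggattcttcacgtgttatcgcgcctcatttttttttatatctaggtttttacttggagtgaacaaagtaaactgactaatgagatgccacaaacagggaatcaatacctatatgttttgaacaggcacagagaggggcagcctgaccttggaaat
Sdhd: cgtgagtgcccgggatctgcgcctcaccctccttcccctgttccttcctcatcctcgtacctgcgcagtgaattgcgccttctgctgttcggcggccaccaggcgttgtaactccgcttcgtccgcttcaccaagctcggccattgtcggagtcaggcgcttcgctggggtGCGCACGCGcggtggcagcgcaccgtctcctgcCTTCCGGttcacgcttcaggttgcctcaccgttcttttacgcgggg
Ndufb4 holds the NRF1 motif alone in this stretch, which ends where GENCODE M21 starts the gene, and the other 3 hold a second motif. With selenite, the NRF1 motif was in 11 of 34 promoters of members that rose and in 12 of 37 of the others.

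Levels between genes were compared as TPM, in which normalised reads are divided by the length of the longest protein-coding transcript and scaled to one sum per library. Complexes V and IV were the most abundant, summing to 5714 to 5898 and 5378 to 5569 TPM in WT, followed by the complex I accessory subunits at 3721 to 3885 and complex III at 2377 to 2468. The complex I core subunits, which hold the flavin and iron-sulfur centres, summed to 864 to 909 TPM in WT and complex II to 736 to 749. Complex I assembly factors, which build the enzyme and leave it, summed to 234 to 249 TPM. The highest single genes by mean TPM over the groups were Atp5b, the catalytic beta subunit of ATP synthase, at 1171, and Cox4i1, a nuclear subunit of complex IV, at 1050.1. Uqcrh led complex III at 437, Ndufa7 the complex I accessory subunits at 293, Sdhb complex II at 271 and Ndufaf2 the assembly factors at 77.1, and Cycs was at 130.0. Summed over all members the level was 19139 to 19845 TPM in WT, 20156 to 20440 in untreated LSKO, 21501 with Mn, 16863 with Fe, 21486 with Se and 20569 with Zn.

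Subunits with tissue isoforms were read almost wholly as the liver or ubiquitous form. Cox4i2, an isoform known from lung, took at most 0.0783% of Cox4i reads, and the muscle form Cox7a1 took 0.220% to 0.729% of the reads of Cox7a1 and Cox7a2. Muscle Cox6a2 had 0 to 9 reads per library, and Cox6b2 and the brown fat and muscle form Cox8b at most 1. No read was counted for Cox7b2 or Cox8c. Among the 3 genes for subunit c of the ATP synthase ring, which encode the same mature protein, Atp5g3 gave 49.6% to 57.1% of reads, Atp5g2 22.3% to 25.7% and Atp5g1 19.0% to 24.7%. These shares are of reads and are not corrected for length.

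**Figure D1:**
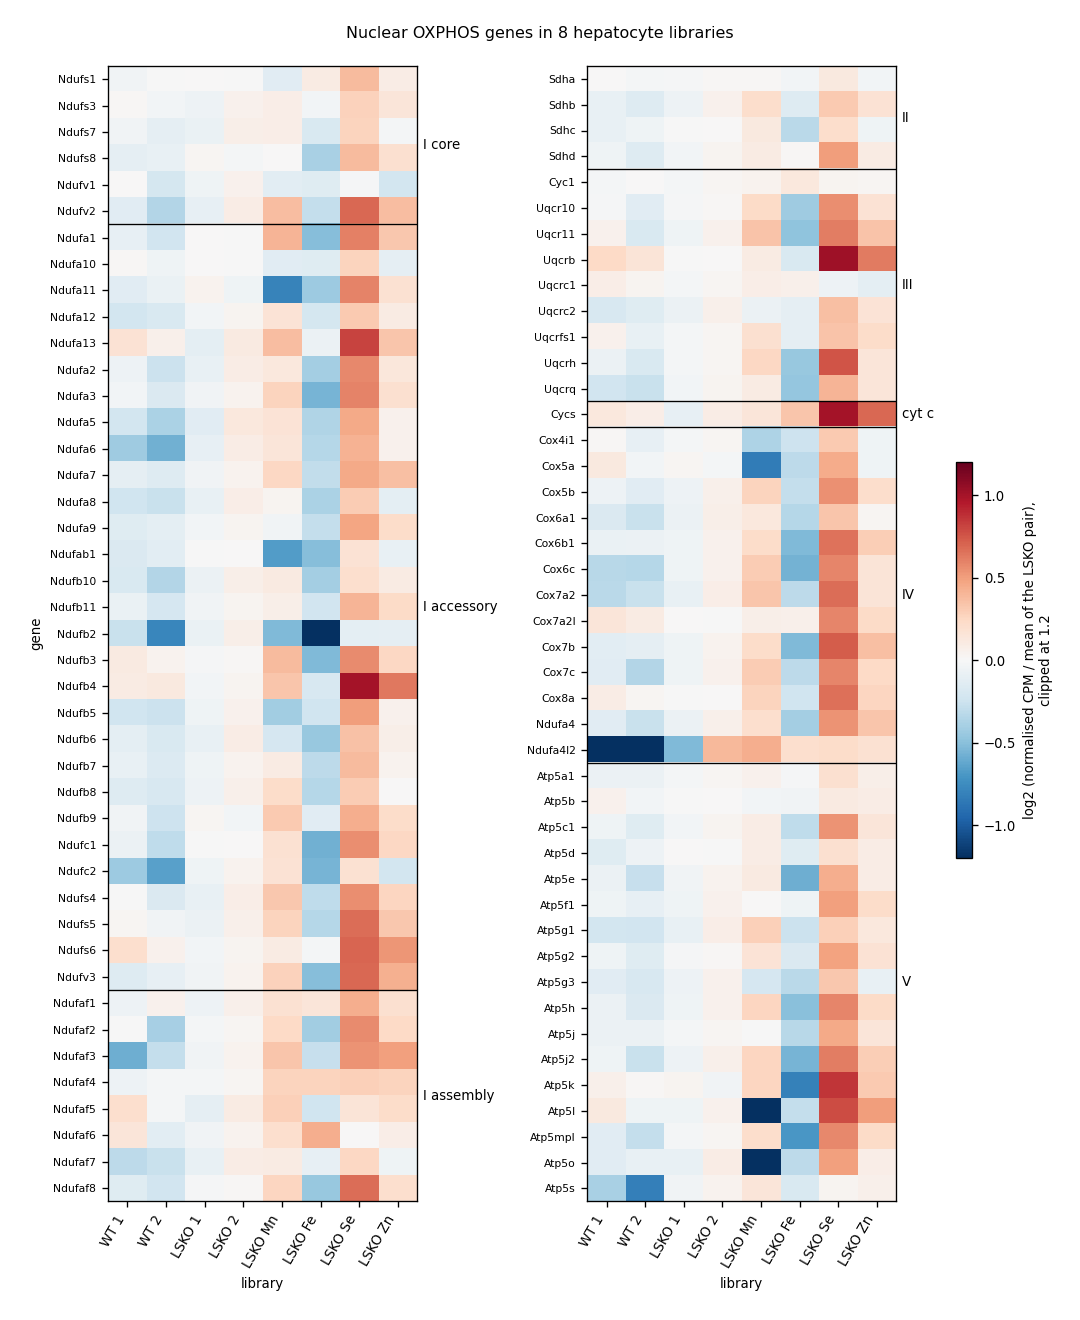
Each row is 1 of 87 members, grouped by complex, and each column 1 of the 8 libraries; colour gives the log2 ratio of normalised CPM to the mean of the 2 untreated LSKO libraries, clipped at 1.2 on either side. The selenite column is red in nearly every row, the iron column is mostly blue, and the manganese column has isolated dark blue cells at Atp5o, Atp5l, Cox5a and Ndufa11.

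The first question was how the members responded to each metal. With selenite, 38 of 88 members rose against untreated LSKO and none fell, with a median log2 fold change of 0.45 and 85 of 88 above 0. To count, a gene needed an adjusted p below 0.05 and a log2 fold change of more than 0.5 in size. Of all tested genes 7.89% rose and 9.67% fell by this measure, and their median was -0.01. Without LSKO replicate 1 the count was 24. It also depended on the scaling: with total gene reads in place of TMM, chosen after seeing the data, all genes shifted by a median of -0.24, 7 members rose (3.91% of all genes) and the median of members was 0.21. The 7 were Ndufb4, Ndufa13, Uqcrb, Uqcrh, Cycs, Atp5k and Atp5l. With zinc 5 members rose and none fell (2.9% and 1.55% of all genes, median of members 0.17). With manganese none rose and 5 fell (2.09% and 15.1%, median 0.15), and with iron none rose and 16 fell (3.8% and 4.89%, median -0.30). In untreated LSKO against WT 4 rose and none fell (6.74% and 3.7%, median 0.11). DESeq2 also gave none in each of these empty directions. At an unadjusted p below 0.05 edgeR gave 0 lower with selenite, 0 lower with zinc, 28 higher with manganese, 3 higher with iron and 1 lower in LSKO against WT. Members of the same pair of libraries also drifted together: replicate 2 differed from replicate 1 by a median of -0.07 in WT and 0.09 in LSKO, so medians near these sizes are within the spread of replicates.

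**Figure D2:**
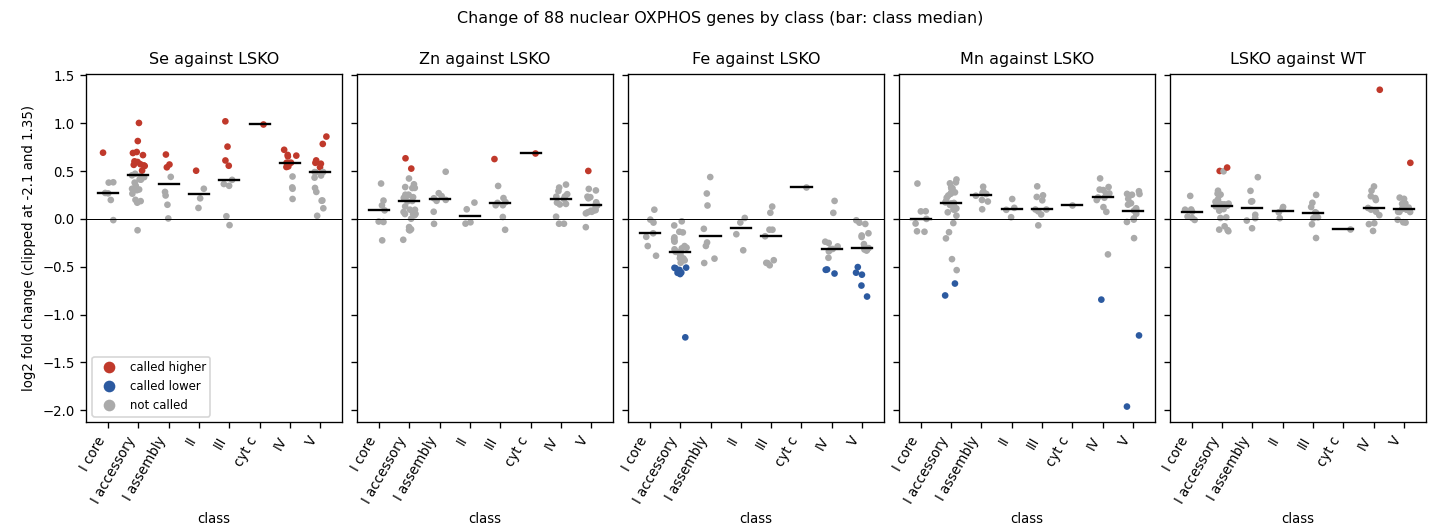
Log2 fold change of each tested member against untreated LSKO for the 4 metals, and of untreated LSKO against WT, by class on the x axis; red points passed the threshold upward, blue points downward, grey points did not pass, and black bars are class medians. The y axis is clipped, which draws Ndufa4l2 (6.10 in LSKO against WT) at the upper edge; with selenite the bar of every class lies above 0, and under scaling to total gene reads the lowest class median was 0.02, for complex II.

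Complex I had most members, and those that rose with selenite were mainly accessory subunits. Of 29 accessory subunits, which surround the catalytic core and are needed for its assembly and stability, 13 rose (median 0.46). Ndufb4 was at 40.7 and 41.2 normalised CPM in WT, 36.9 and 38.8 in LSKO, 47.6 with Mn, 33.1 with Fe, 75.9 with Se and 58.8 with Zn. Selenite thus stood above every other library, with a log2 fold change of 1.00 against LSKO (SE 0.100, adjusted p = 0.000115) and 0.89 against WT. Ndufa13, an accessory subunit also known as GRIM-19, was at 89.8 and 82.9 in WT, 73.6 and 85.6 in LSKO, 103 with Mn, 76.0 with Fe, 140.1 with Se and 100.4 with Zn (selenite against LSKO 0.81, SE 0.108, adjusted p = 0.00068). Ndufs6, which lies at the zinc-binding site of the enzyme, was between 60.6 and 71.0 in the untreated libraries and at 101 with selenite (0.70, SE 0.0989, adjusted p = 0.000965), and with the reads of its pseudogene copy added it was at 0.46 and did not pass. Ndufb2 was the lowest accessory subunit with selenite, at -0.12, and also had the lowest counted level, with 36 to 121 reads. Its exons overlap other genes by 145 bases on the same strand and 302 on the opposite strand. The part of these overlaps in its counts was not tested.

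Of the 7 core subunits only Ndufv2, an iron-sulfur protein of the NADH-oxidising module, rose with selenite. It was at 92.3 and 79.6 normalised CPM in WT, 95 and 108 in LSKO, 131 with Mn, 83.5 with Fe, 164 with Se and 131 with Zn (0.69, SE 0.113, adjusted p = 0.00207). Its partner Ndufv1, which binds NADH, showed -0.01 with adjusted p = 0.944, and the selenite value of 118 lay among the 103 to 124 of the untreated libraries. Of 8 assembly factors 3 rose: Ndufaf8 (0.67), Ndufaf2 (0.57) and Ndufaf3 (0.54). With the length and GC correction described below Ndufaf2 was at -0.09, Ndufaf8 at 0.37 and Ndufaf3 at 0.47, and none passed.

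Complex II has 4 subunits, and Sdhd, one of its membrane anchors, rose. Sdhd was at 149 and 139 normalised CPM in WT, 151 and 158 in LSKO, 165 with Mn, 156 with Fe, 219.6 with Se and 166 with Zn (0.50, SE 0.0916, adjusted p = 0.00339). The iron-sulfur subunit Sdhb was at 199 with selenite and 143 to 166 untreated, a change of 0.32 (adjusted p = 0.0301) that did not reach the fold threshold. Sdhc, the other anchor, was at 147 against 119 to 127 untreated (0.22, adjusted p = 0.0932). The flavoprotein Sdha, which oxidises succinate, changed least of the 4, at 279 with selenite and 251 to 261 in the other 7 libraries (0.12, adjusted p = 0.358).

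Uqcrb of complex III and Cycs had the largest fitted changes beside Ndufb4. For Uqcrb this depends on how copies are read, since with the reads of its pseudogenes added its change was 0.66, below the 1.06 of Ndufb4, 1.00 of Cycs and 0.93 of Atp5l. Uqcrb, which takes part in quinone binding, was at 96.4 and 90.7 normalised CPM in WT, 81.2 and 81.8 in LSKO, 87.3 with Mn, 71.9 with Fe, 165 with Se and 126 with Zn (1.02 with selenite, SE 0.0890, adjusted p = 4.24e-05). Uqcrh, the hinge protein at the cytochrome c1 docking site, was at 114 and 106 in WT, 118 and 122 in LSKO, 142 with Mn, 87.3 with Fe, 203 with Se and 133 with Zn (0.76, SE 0.0914, adjusted p = 0.000412). Cycs, the only cytochrome c of somatic cells, was at 183 and 177 in WT, 157 and 179 in LSKO, 185 with Mn, 212 with Fe, 335 with Se and 272 with Zn (1.00, SE 0.0979, adjusted p = 0.000102). For all 3 genes the selenite library was the highest of the 8. In complex III 4 of 9 members rose, the others being Uqcr11 (0.61) and Uqcr10 (0.56). The large core protein Uqcrc1, at -0.06, and cytochrome c1 itself, Cyc1, at 0.03, did not pass.

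**Figure D3:**
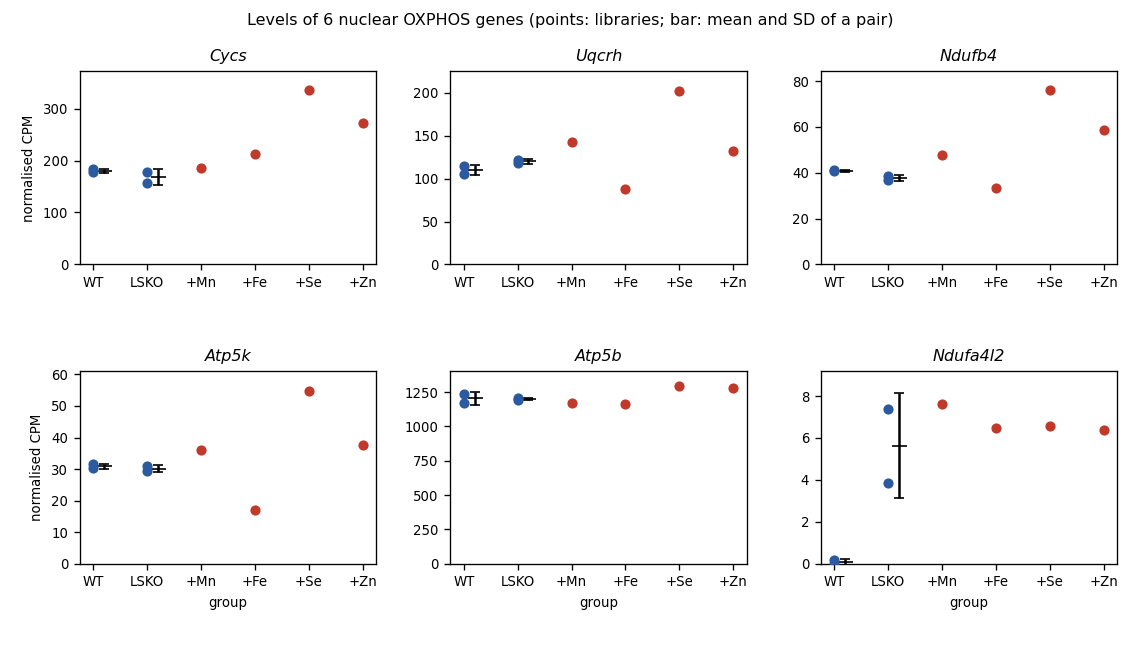
Normalised CPM (y axis, from 0) of Cycs, Uqcrh, Ndufb4, Atp5k, Atp5b and Ndufa4l2 in the 6 groups on the x axis, 1 point per library, with the mean and SD beside the pairs. Cycs reaches 335 and Uqcrh 203 with selenite, above every other library, Atp5k is at 17.2 with iron, and Ndufa4l2 is near 0 in WT alone.

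Of complex IV, 9 of 13 members rose with selenite (median 0.58), the largest share among the complexes with TMM scaling. With scaling to total gene reads 0 of the 13 passed (median 0.34). Complex IV also had the shortest median transcript among the complexes, 709 bases. Most of its nuclear subunits are small proteins that surround the mitochondrially encoded core. Cox7b was at 89.3 and 90.6 normalised CPM in WT, 94.2 and 101 in LSKO, 114 with Mn, 67.4 with Fe, 161 with Se and 125 with Zn (0.72, SE 0.0897, adjusted p = 0.000468). Cox7a2, the liver form, was between 89.8 and 119 untreated and at 179 with selenite (0.67, SE 0.0975, adjusted p = 0.00112). Cox8a was between 113 and 121 untreated and at 180.1 with selenite (0.66, SE 0.0877, adjusted p = 0.00068). These small subunits were named for the largest changes of the class. In them selenite lay above all 4 untreated libraries, as it did for 34.5% of all genes tested. Cox4i1, the most abundant of the class, was at 567 against 427 to 462 untreated, and its change of 0.32 (adjusted p = 0.0281) was under the fold threshold.

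In complex V 6 of 17 members rose with selenite, among them subunits of the membrane part. Atp5k, the e subunit of the dimer interface, was at 31.5 and 30.4 normalised CPM in WT, 31.0 and 29.4 in LSKO, 36.1 with Mn, 17.2 with Fe, 54.8 with Se and 37.5 with Zn (0.86, SE 0.11, adjusted p = 0.000555). Atp5l, subunit g at the same interface, was between 82.5 and 92.9 untreated and at 148 with selenite (0.78, SE 0.101, adjusted p = 0.000581). Atp5j2, subunit f, was between 109 and 137 untreated and at 200.4 with selenite (0.61, SE 0.107, adjusted p = 0.00284). The catalytic subunit Atp5b moved little, at 1295 normalised CPM with selenite, 1239 and 1172 in WT, 1192 and 1204 in LSKO (0.11, adjusted p = 0.391). It was the most abundant member and among the long ones, at 1916 bases.

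More members passed against the control of the same processing set. Against WT, 58 of 88 members rose (13.8% of all genes, median 0.59), or 16 with scaling to total gene reads (6.82% of all genes), and the 58 included 22 of 29 accessory subunits of complex I, 6 of 9 members of complex III, 10 of 13 of complex IV and 13 of 17 of complex V. The smallest p-values there belonged to Cox6c (0.93, SE 0.0895, adjusted p = 7.68e-05), Cox7a2 (0.96, SE 0.0972, adjusted p = 9.78e-05) and Uqcrh (0.88, SE 0.0913, adjusted p = 0.00011). Genotype differs as well in that comparison. Against the mean of iron and zinc, which are LSKO libraries of the same set, 46 rose (7.53% of all genes, median 0.53). Atp5k showed 1.11 and Uqcrh 0.91 there, while Cycs, at 0.48, did not pass the fold threshold. This control includes the iron library, in which members had a median of -0.30 against untreated LSKO, while with zinc it was 0.17. Against the mean of manganese, iron and zinc 42 rose (16.3% of all genes). The selenite library lay above all 4 untreated libraries for 81 of 88 members, and for 34.5% of all genes tested. The same library had the highest summed hepatocyte markers, of which 4 of 8 rose against untreated LSKO (median 0.56). Of the markers of other cells, 2 of 7 for Kupffer cells rose, 3 of 6 for endothelial cells fell (median -0.60) and 2 of 7 for stellate cells fell. The part of these cells in the result was not tested.

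The scaling bore on the selenite library above all. Its TMM factor was 0.867, against 0.969 to 1.06 in the others, so TMM raises its values relative to total gene reads. As a share of all gene reads, the members took 1.06% to 1.13% in the 4 untreated libraries, 1.16% with Mn, 0.960% with Fe, 1.25% with Se and 1.16% with Zn. Selenite was the highest and iron the lowest of the 8 on this scale too. As TPM, the sum over complex IV was 6277 with selenite against 5694 and 5798 in LSKO, and over complex III 2726 against 2437 and 2436. Manganese was at 6103 and 2744 for these 2 complexes. Over all members its TPM sum of 21501 was slightly above the 21486 with selenite. The core subunits of complex I, at 855 with selenite, and complex II, at 738, stood below their LSKO values of 899 and 904 and of 761 and 767. The direction with selenite in these 2 classes thus depended on the scale.

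Transcript length moved with the size of these changes. The members are short genes, with a median of 963 bases for the longest protein-coding transcript, from 371 for Atp5k to 4715 for Atp5g1 among those tested and 360 for the untested Cox8b. Over the 88 members, Pearson's r between the log2 fold change with selenite and log2 length was -0.46 (Spearman's rho -0.49), and over 12442 protein-coding genes it was -0.34. These are descriptions across genes, which share libraries and are not independent. By length class, 4 of 5 members up to 500 bases rose, then 22 of 41 up to 1000, 11 of 30 up to 2000 and 1 of 12 above 2000. Among all protein-coding genes 43.5%, 35.1%, 11.2% and 2.97% of the same classes rose. In the class above 2000 bases, the member that rose was Cycs, at 3123 bases.

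When the fit was corrected for length and GC content of all genes, 4 members remained higher with selenite, where 3.61% of all genes were, and the median of members dropped to 0.074. The 4 were Ndufa13 (0.85, SE 0.0916, adjusted p = 0.000568), Cycs (0.75, SE 0.0862, adjusted p = 0.000845), Ndufv3 (0.65, SE 0.0928, adjusted p = 0.00305) and Ndufb4 (0.63, SE 0.0895, adjusted p = 0.00296). Ndufv3, a subunit next to Ndufv1 and Ndufv2, was at 32.2 and 33.5 normalised CPM in WT, 34.9 and 36.9 in LSKO, 43.5 with Mn, 25.1 with Fe, 57.9 with Se and 48.1 with Zn. Uqcrb was at 0.15 after the correction, Uqcrh at 0.14 and Atp5k at 0.34, and none of these passed. Such a correction removes any change that goes with length, whether it arose in the cells or in the libraries, and which of these it was cannot be told apart here. Against WT, 7 members were higher and 2 lower after the correction, where 8.83% and 8.8% of all genes were. When each was corrected alone, length left 5 members higher against LSKO (median 0.13) and GC content 40 (median 0.45).

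**Figure D4:**
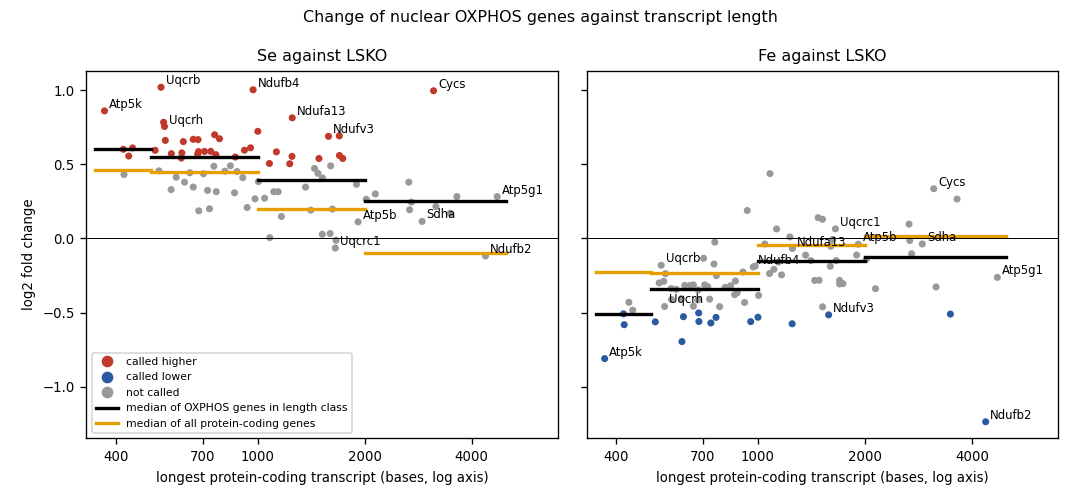
Log2 fold change against untreated LSKO (y axis) of each member by the length of its longest protein-coding transcript (x axis, log scale, bases), for selenite on the left and iron on the right; red and blue points passed the threshold upward and downward, black bars are medians of members in each length class and orange bars those of all protein-coding genes. The medians of members are highest with selenite and lowest with iron in the class up to 500 bases. The lowest single member with iron is Ndufb2 in the longest class (-1.24, at 36 reads with iron). Cycs stands apart from the other long members on the left.

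With iron every member that passed against untreated LSKO fell. The 16 against untreated LSKO were 8 of 29 complex I accessory subunits, 3 of 13 members of complex IV and 5 of 17 of complex V. Atp5k had the smallest p-value, falling to 17.2 normalised CPM from 29.4 to 31.5 in the untreated libraries (-0.81, SE 0.124, adjusted p = 0.00242). Atp5mpl, a small proteolipid of the ATP synthase, was at 60.6 and 54.6 in WT, 65.7 and 67.7 in LSKO, 77.2 with Mn, 41.2 with Fe, 99.5 with Se and 78.1 with Zn (-0.70, SE 0.108, adjusted p = 0.00254). Cox6c, a small membrane subunit of complex IV, was at 101 and 100.3 in WT, 123 and 132 in LSKO, 158 with Mn, 85.8 with Fe, 191 with Se and 141 with Zn (-0.57, SE 0.0954, adjusted p = 0.00397). For these 3 genes iron was the lowest and selenite the highest of the 8 libraries. Cycs was at 0.34, without passing (adjusted p = 0.0532). Markers of other cells were also lower with iron: 5 of 6 endothelial markers fell (median -0.97), as did 2 of 7 stellate and 2 of 7 Kupffer cell markers, while the 8 hepatocyte markers had a median of -0.17. Their part in the result was not tested.

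The fall with iron depended on the control. Against WT, which shares the processing set of the iron library, 2 members fell and Ndufa4l2 rose (4.76% and 5.88% of all genes, median -0.17). Those that fell were Atp5k at -0.85 (SE 0.124, adjusted p = 0.0018) and Ndufb3, an accessory subunit of complex I, at -0.61 (SE 0.103, adjusted p = 0.00388). Atp5mpl was at -0.49 there and Cox6c at -0.23, and neither passed. Iron lay below all 4 untreated libraries for 58 of 88 members, and for 26.9% of all genes tested. With the length and GC correction 5 members fell against LSKO, where 4.81% of all genes did, and Atp5k (-0.69) and Atp5mpl (-0.60) were among them. Pearson's r between log2 fold change and log2 length was 0.35 over members (rho 0.49) and 0.02 over all protein-coding genes. 

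With zinc, 5 members rose against untreated LSKO: Cycs (0.69, SE 0.0986, adjusted p = 0.00182), Uqcrb (0.63, SE 0.0899, adjusted p = 0.00194), Ndufb4 (0.63, SE 0.101, adjusted p = 0.00381), Ndufs6 (0.53, SE 0.0991, adjusted p = 0.0112) and Atp5l (0.50, SE 0.102, adjusted p = 0.0171). With selenite, against the same control libraries, their values were 1.00, 1.02, 1.00, 0.70 and 0.78. For each of the 5 the zinc library lay above all 4 untreated libraries and below selenite. They were picked for their rise with zinc, and no share of all genes is given for this order. All 5 are among the 22 members with processed pseudogenes, which are copies of the messenger RNA written back into the genome and nearly identical in sequence. Of the 66 members without such copies none rose with zinc by edgeR. Against WT, Cycs (0.59, adjusted p = 0.00397) and Ndufb4 (0.52, adjusted p = 0.00827) rose among 8 members (6.39% of all genes), while Uqcrb (0.43), Atp5l (0.47) and Ndufs6 (0.40) did not reach the fold threshold.

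Reads at pseudogene copies differed between the processing sets for part of the 22 members that have them. The share was higher in all 3 LSKO and manganese libraries than in the other 5 for 9 members, lower for 2, and overlapped for 11, such as Uqcr11 and Ndufa12. For Uqcrb, reads at 3 copies came to 10.5% and 10.5% of the gene's own reads in WT, 37.5% and 48.7% in LSKO, 49.6% with Mn, 9.01% with Fe, 11.7% with Se and 9.62% with Zn. For Ndufs6 the single copy drew 3.18% and 3.40% in WT and 2.70% to 4.01% with iron, selenite and zinc, against 20.7% to 24.0% in the other 3 libraries. Ndufb4 went the other way, with at most 0.178% in the LSKO and manganese libraries and 2.11% to 4.42% in the other 5. For Cycs the copies took at most 0.635% in any library. When the reads of the copies were added to each gene, a choice made after seeing the data, 3 members rose with zinc: Cycs, Ndufb4 and Atp5l. Uqcrb fell to 0.24 (adjusted p = 0.213) and Ndufs6 to 0.29 (adjusted p = 0.137). With selenite 37 members rose under the same sum, Uqcrb at 0.66 and Ndufs6 at 0.46, the latter no longer passing. With iron Uqcrb then fell, at -0.57 (adjusted p = 0.00507).

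**Figure D5:**
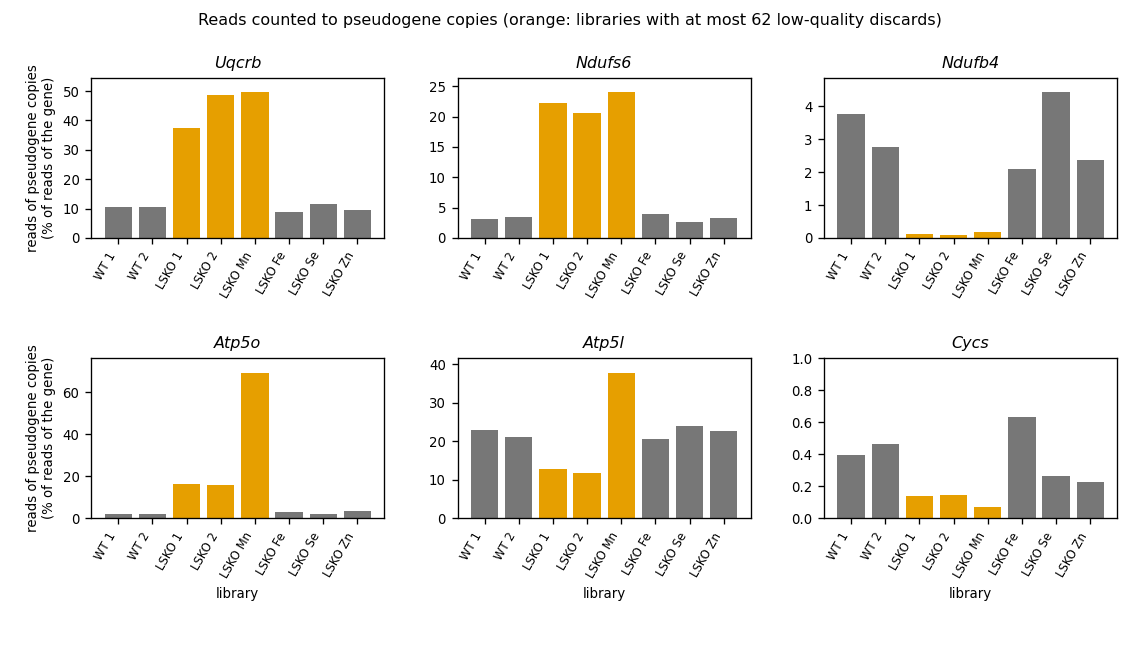
Reads at processed pseudogene copies as a percentage of the gene's own reads (y axis, from 0) in the 8 libraries (x axis), for 6 members with copies; orange bars are the LSKO and manganese libraries and grey bars the other 5. Uqcrb rises from at most 11.7% in the grey bars to at least 37.5% in the orange ones, and Ndufb4 shows the opposite order.

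With manganese 5 members fell against untreated LSKO, which belonged to the same processing set. Atp5o, the subunit that joins the stalk to the catalytic head of ATP synthase, was at 60.5 and 62.4 normalised CPM in WT, 62.2 and 70.3 in LSKO, 17 with Mn, 53.1 with Fe, 93.1 with Se and 69.8 with Zn (-1.96, SE 0.123, adjusted p = 3.45e-07). Atp5l was at 36.9 with manganese (-1.22, adjusted p = 9.66e-06) and Cox5a, a nuclear subunit of complex IV, at 62.4 against 109 to 121 untreated (-0.84, adjusted p = 9.17e-05). Ndufa11 (-0.80) and Ndufab1 (-0.68) were the other 2. All 5 overlap an exon of a gene on the opposite strand, as 28 of the 88 members do, and none of the 60 members without such an overlap fell. Over all genes tested, 2182 of 5568 with an overlap fell and 148 of 9900 without. For Atp5o, the antisense partner D430001F17Rik had 860 to 1379 reads in the other libraries and 0 with manganese. Reads at its pseudogene copy, relative to its own, were 16.5% and 16.1% in LSKO and 69.4% with manganese. The strand setting of the counting is not given in the sources used here, and whether the 5 transcripts changed in the cells cannot be told apart from how that library was counted. Among genes without an overlap, fitted alone, edgeR gave 0 lower members at the same threshold. With the length and GC correction 23 members rose with manganese, where 4.04% of all genes did, and the same 5 fell.

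Untreated LSKO was next compared with WT. The groups differ in Slc39a8, in Alb-cre and in processing set, and these cannot be told apart. Ndufa4l2 (ENSMUSG00000040280, chr10:127514967-127517154, plus strand) rose most. It is a paralog of the complex IV subunit Ndufa4 and is known as a target of hypoxia-inducible factor. Its reads were 0 and 4 in WT, 88 and 201 in LSKO, 180 with Mn, 130 with Fe, 133 with Se and 157 with Zn. Every LSKO library was thus far above both WT libraries, with Fe, Se and Zn in the processing set of WT. The cause of this difference was not tested. The ratio of summed reads in untreated LSKO to WT, scaled to library size, was 74.9 (exact 95% interval for counting error 29.0 to 277), and the fitted log2 fold change was 6.10 (SE 0.616, adjusted p = 0.000101). It remained a minor form, at 2.29% to 4.71% of the reads of Ndufa4 and Ndufa4l2 in the LSKO libraries. Ndufa4l2 overlaps an exon of Shmt2 on the opposite strand by 32 bases.

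The other 3 members that rose in LSKO changed by less. Of all 4, 1 passed without WT replicate 2, which was Ndufa4l2, and 2 without LSKO replicate 2. Ndufc2, an accessory subunit of complex I, was at 79.7 and 68.5 normalised CPM in WT and 104 and 111 in LSKO (0.54, SE 0.0892, adjusted p = 0.00251). Ndufa6 was at 63.8 and 57.6 in WT and 80.5 and 91.4 in LSKO (0.50, SE 0.0901, adjusted p = 0.00405), and Atp5s, a coupling factor of ATP synthase, at 9.58 and 7.11 against 12.2 and 13 (0.59, adjusted p = 0.0342). In place of untreated LSKO, the mean of the iron, selenite and zinc libraries stood above WT for 6 members (7.12% of all genes, median 0.24). Ndufa4l2 (6.29), Atp5s (0.55) and Ndufa6 (0.54) were among these, and Ndufc2, at 0.34, was not. All 8 hepatocyte markers rose in LSKO against WT too, and their part in these values was not tested.

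Genes that serve the same pathway outside the rule were read from lists. Of 40 tested assembly factors that the symbols leave out, 5 rose with selenite against untreated LSKO (median 0.23, with 7.89% of all genes higher). Against WT 11 rose and 1 fell (13.8% and 12.9% of all genes), and against the mean of iron and zinc 7 rose (7.53%) and 1 fell. Uqcc3, a complex III assembly factor, showed 0.62 (adjusted p = 0.00538), and Higd1a, a stabiliser of complex IV, 0.62 (adjusted p = 0.00173), and both also passed in the other 2 comparisons. With iron 5 fell against LSKO, among them Pet100 (-1.21, adjusted p = 0.0457) and Cox20 (-0.64, adjusted p = 0.0129), while against WT edgeR and DESeq2 called 0 of the 40 (4 lower and 4 higher at an unadjusted p below 0.05 in edgeR, median 0.04).

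Of 14 regulators of nuclear OXPHOS genes, 3 fell with selenite (9.67% of all genes did). They were Polrmt, the mitochondrial RNA polymerase (-0.95, adjusted p = 0.0013), Hcfc1, a cofactor of NRF2/GABP (-0.95, adjusted p = 0.00089), and Pprc1, a coactivator of the PGC-1 family (-0.83, adjusted p = 0.00538). The same 3 fell against WT and against the mean of iron and zinc. By the length classes used above, 12.3% of all protein-coding genes above 2000 bases fell with selenite against LSKO. In the class next below it was 1.96%. No transcript length or length-corrected value is given for these 3 regulators, and the part of length in their fall was not tested. With iron 2 rose against LSKO (3.8% of all genes), Polrmt (0.54, adjusted p = 0.0207) and Tfb2m, a mitochondrial transcription factor (0.51, adjusted p = 0.0359). Against WT Polrmt was at 0.50 (adjusted p = 0.0247) and Tfb2m at 0.00 (adjusted p = 0.992).

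Of the 13 mitochondrially encoded subunits of the same complexes, 8 rose with selenite against LSKO (median 0.55), 3 against WT (median 0.44) and 11 against the mean of iron and zinc (median 1.06), where 7.89%, 13.8% and 7.53% of all genes rose. With iron 9 fell against LSKO (median -0.78) and 8 against WT (median -0.97), where 4.89% and 4.76% of all genes did. With manganese 9 fell (median -1.30, 15.1% of all genes) and with zinc 3 (median -0.13, 1.55%). The share of all genes with manganese was uneven: 2182 of 5568 with an opposite-strand overlap fell and 148 of 9900 without. The manganese library was the one with 4.48% of its reads in no gene. The part of its counting in the fall of these 9 was not tested.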

How the data were processed

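The deposited values were raw read counts per gene, which the authors made from RNA-seq with hisat2 and HTSeq after trimming with Trimmomatic, on GRCm38 (per the submitters' processing notes). Which annotation release was used, which strand setting and which quality cut is not given in the sources used here. Each of the 55450 identifiers matched GENCODE M21, which gave symbols, coordinates and transcript lengths. Summary rows that name no gene were left out, and no column of the count tables was left unused.

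A model of 6 groups over the 8 libraries was fitted with edgeR 4.0.16 in R 4.3.3, with TMM factors, the quasi-likelihood F-test and Benjamini-Hochberg adjustment over 15468 genes. It left 2 residual degrees of freedom, so groups of 1 library borrow the spread of the WT and LSKO pairs. Calls required adjusted p below 0.05 and more than 0.5 on the log2 scale. Normalised CPM use TMM library sizes, and TPM add transcript length. Counting error alone did not account for the gap between paired libraries (chi-square divided by its degrees of freedom 5.99 for WT and 13.3 for LSKO). The fit was also run on simulated counts, and the outcome of that run is not given here.

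Alternatives were DESeq2 1.42.0, other size factors (total gene reads among them) and filters, each replicate left out, a replicate block, a spline correction for length and GC content, genes without opposite-strand overlap and other controls. Pseudogene copies were matched with blastn 2.17.0 at 95% identity or more over 150 bases. The members, gene lists and tests were chosen with earlier results of these data known. Named genes were, per class, up to 3 members called with selenite with the largest change and the member with the highest level, the 3 smallest p-values in each other comparison, complex II, cytochrome c, isoform families, the shortest and longest transcripts and members called after the length correction. Others were named after their values were seen. Values of 1 member are not reported here, though counts and sums over members include it.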

Additional observations from a re-analysis of the deposited data

How the results depend on the processing

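With selenite, the 38 higher members became 24 to 40 when 1 replicate was left out, lowest without LSKO replicate 1, and their median 0.37 to 0.47. The length and GC correction left 4 higher and a median of 0.074, the adjusted p alone gave 66, and WT as control gave 58. The length and GC correction also turned Ndufaf2 to -0.089 and Ndufa4 to -0.25. Length corrected alone left 5 (median 0.127) and GC content alone 40. Total gene reads in place of TMM left 7 higher and a median of 0.211 with selenite, and 3 higher with zinc. With manganese, 0 higher members became 23 under the length and GC correction, 7 by the adjusted p alone and 2 without LSKO replicate 2, and the 5 lower became 0 among genes without opposite-strand overlap. With iron, the 16 lower became 5 under the correction, 29 by the adjusted p alone, 2 against WT (where 1 was higher), 12 with DESeq2 and 11 to 23 without 1 replicate, the range being set by LSKO replicates 2 and 1. With zinc, the 5 higher became 2 under the correction (median 0.034), 2 among genes without opposite-strand overlap, 3 with pseudogene reads added, 8 against WT and 3 to 5 without 1 replicate, lowest without LSKO replicate 1. In LSKO against WT, the 4 higher became 2 with DESeq2, 7 by the adjusted p alone and 1 to 4 without 1 replicate: 1 without WT replicate 2 and 2 without LSKO replicate 2. The cause of the other shifts was not tested. For counts by the adjusted p alone, by DESeq2 or without 1 replicate, no share of all genes is given. The same holds for length or GC content corrected alone. These counts are thus not set against the rate in all genes. Genes without opposite-strand overlap include 60 of the 88 members and none of the 5 that fell with manganese. Of these 60 members, 2 had also risen with zinc in the main fit. The WT and LSKO libraries share replicate numbers that no source ties to a pairing: over 10882 genes the correlation of their deviations was -0.12. Fits to the 4 untreated libraries gave 3 higher members with the replicate block, 3 without it and 3 with the crossed pairing, chosen after seeing the data like the pseudogene sum, the total-read scaling, the corrections for length or GC content alone, the comparisons of iron and zinc with WT, and the fit without the manganese library, which gave 38 higher with selenite and 16 lower with iron. Each metal has 1 library, so the spread between cultures under a metal is unknown.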

Other observations

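Of 14 enzymes of the tricarboxylic acid cycle, which supply the NADH and succinate that complexes I and II oxidise, 1 passed the threshold with selenite. This was Ogdh, a component of the 2-oxoglutarate dehydrogenase complex, which fell (log2 fold change -0.71, adjusted p = 0.000708), as did 9.67% of all genes. It was at 122 and 127 normalised CPM in WT, 116 and 112 in LSKO, 107 with Mn, 110.1 with Fe, 69.6 with Se and 102 with Zn. The selenite library was the lowest of the 8 for this gene, and no length-corrected value is given for it. The median of the 14 was 0.24 with selenite, 0.01 with iron and 0.00 with zinc.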
